A study of Rattus norvegicus with 8 samples.

Results

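Microglia, the resident macrophages of the brain, were followed here through 10 genes that mark them: Tyrobp, Fcer1g, Csf1r, Cx3cr1, P2ry12, Itgam, C1qa, C1qb, Aif1 and Laptm5. They were chosen by gene symbol and make up 10 of the 26903 genes and accessions on the array. The 10 genes were represented by 13 probes. RNA came from primary neurons that were taken at E18 from Sprague Dawley cortex and hippocampus and kept for 7 days in vitro. The cells received CAT-SKL alone (1 µM, 24 h), ADDL alone (1 µM, 24 h), or both agents in sequence, each at 1 µM for 24 h. The group named CAT-SKL+ADDL was taken as CAT-SKL before ADDL, and ADDL+CAT-SKL as the reverse, from the order of the names. The control was vehicle, and the labels do not say whether its RNA was 1 pool or how long vehicle was given. CAT-SKL is an antioxidant form of catalase that carries a peroxisomal targeting signal, and ADDLs are soluble oligomers of amyloid-beta. Each treatment had 2 arrays, 8 in all, with treated RNA in Cy5 and vehicle RNA in Cy3 on each.

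Microglia enter the brain from the embryonic yolk sac and are not made by the neural stem cells that give rise to neurons and astrocytes. Their survival depends on the receptor Csf1r, and they read neurons through the fractalkine receptor Cx3cr1 and the purine receptor P2ry12. Immune receptors of these cells signal through the membrane adaptors Tyrobp (DAP12) and Fcer1g (the Fc receptor gamma chain). In neuron cultures from embryonic cortex or hippocampus, microglia are usually a small minority among neurons and astrocytes. The labels name the cells as neurons only, and give no count of other cells.

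Some properties of the arrays bear on every value. All 8 arrays were on 1 slide, single treatments in 1 row and sequential treatments in the other, so that row, total time in culture with agents and sequence of agents cannot be told apart. No dyes were swapped, so an effect of dye on a probe cannot be told apart from treatment. The 2 CAT-SKL+ADDL arrays stood apart. Their difference, measured once in each of the 2 spots of a probe, correlated at 0.00719 between the spots, against 0.291 to 0.709 in the other 27 pairs of arrays, so that they differed by no more than spot noise. They were averaged and counted as 1 sample, which left 7 samples in the fit. Nothing says that replicates came from separate cultures, so p-values cover only the spread among these samples, which may be technical, and precision is limited by having 8 arrays.

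Most microglial markers gave a signal above background. Of the 10 genes, 9 were well above background in both channels on all 8 arrays. The exception was Itgam, which encodes the CD11b integrin chain of microglia and other myeloid cells. Its probe was well above background on 0 of 8 arrays in either channel, with a signal of 0.902 to 1.03 times background in Cy5 and 0.969 to 1.28 times in Cy3. Itgam was therefore not tested, and no level is given for it. By the same rule, 73.3% to 81.0% of all probes passed per array in Cy5, and 71.5% to 77.4% in Cy3. Of 8 lymphocyte and neutrophil markers, 2 to 5 passed in Cy5 and 1 to 4 in Cy3. A pass thus does not by itself show that a cell type was present. Apart from Itgam, the 9 marker genes were measured at different distances from background. For Cx3cr1 the median signal was 81.5 times background in Cy5 and 56.8 times in Cy3. For Laptm5 the medians were 8.69 and 6.61 times, for Aif1 6.27 and 4.22, for C1qb 4.07 and 3.37, and for Tyrobp 3.95 and 2.95 times. Csf1r lay at 3.59 and 3.18 times background, Fcer1g at 3.04 and 1.82, P2ry12 at 1.85 and 1.92, and C1qa at 1.38 and 1.47 times. Cx3cr1 alone was far above background in both channels, and closer to background the offset of 50 added during background correction pulls ratios towards 0. In this bulk RNA, fewer or more cells of a type and less or more RNA per cell cannot be told apart.

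The upstream sequence is shown for the 3 markers whose annotated start lies at the edge of the gene. C1qa and C1qb lie close together on rat chromosome 5, and their ratios correlated at 0.21 over the arrays. Laptm5, on the same chromosome, correlated at 0.87 with the mean of the other markers. Each line gives the 250 bases before the annotated start, from RefSeq on GRCr8, 5' to 3' on the strand of the gene. Capitals mark GAGGAA, the core of sites of the myeloid factor PU.1, or its reverse complement TTCCTC.
Laptm5, chr5:148371630-148371879, plus strand: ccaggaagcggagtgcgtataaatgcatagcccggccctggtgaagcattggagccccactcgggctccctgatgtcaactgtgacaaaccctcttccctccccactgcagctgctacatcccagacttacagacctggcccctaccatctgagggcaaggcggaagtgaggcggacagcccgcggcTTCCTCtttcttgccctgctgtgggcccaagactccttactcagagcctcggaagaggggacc
C1qb, chr5:154407828-154408077, minus strand: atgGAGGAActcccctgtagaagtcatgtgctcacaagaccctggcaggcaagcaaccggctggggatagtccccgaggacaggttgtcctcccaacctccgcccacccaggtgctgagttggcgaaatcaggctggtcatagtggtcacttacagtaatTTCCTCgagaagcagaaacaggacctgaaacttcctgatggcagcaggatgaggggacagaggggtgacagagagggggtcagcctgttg
C1qa, chr5:154419934-154420183, minus strand: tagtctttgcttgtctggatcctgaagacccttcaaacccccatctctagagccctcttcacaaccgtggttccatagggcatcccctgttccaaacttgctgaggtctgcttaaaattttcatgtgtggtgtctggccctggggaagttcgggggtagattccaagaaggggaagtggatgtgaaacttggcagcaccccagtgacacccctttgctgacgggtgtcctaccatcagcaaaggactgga
Entries existed for 6 of the 10 genes. The GAGGAA core, searched on both strands, occurred 1 time before Laptm5, 2 times before C1qb and 0 times before C1qa. It occurred upstream of 4 of the 6 genes, and in 23.3% of all 33469 windows of the same length. The windows of Itgam, Csf1r and Cx3cr1 end at a start away from the gene edge and are not shown. Itgam and Csf1r are among the 4 with a match. The AP-1 motif TGANTCA, also searched on both strands, occurred before 0 of the 6 genes and in 6.34% of all windows. With no AP-1 match, the motifs could not overlap in these windows. A match describes these letters only.

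Against vehicle, the markers were measured mostly above 0 after either agent alone, and near 0 after ADDL followed by CAT-SKL. The median log2 ratio of the 9 measured markers was 0.18 after CAT-SKL, 0.27 after ADDL, 0.09 after CAT-SKL+ADDL and -0.03 after ADDL+CAT-SKL, where the medians of all 22459 genes tested lay within 0.01 of 0. Single arrays moved these medians. The CAT-SKL median was 0.07 without array 1 and 0.23 without array 2, and the ADDL median 0.15 and 0.41. The CAT-SKL+ADDL median was 0.05 and 0.13, and 0.03 with the deposited ratios. The ADDL+CAT-SKL median turned to 0.08 without array 1, was -0.13 without array 2, and lay at 0.000861 with the log ratios of the authors' deposited files. After CAT-SKL, 1 of the 9 markers, Fcer1g, passed the test (limma, Benjamini-Hochberg adjusted p below 0.05 over all genes), where 2.62% of all genes passed and 0.837% passed as higher. In each of the other 3 treatments 0 of 9 passed, where 0% of all genes passed after ADDL, 0% after CAT-SKL+ADDL and 0.454% after ADDL+CAT-SKL. At an unadjusted p of limma below 0.05, 5 of 9 were higher after CAT-SKL against 9.60% of all genes, and 5 of 9 after ADDL against 9.83%. After CAT-SKL+ADDL this held for 1 of 9 against 5.32%, and after ADDL+CAT-SKL for 1 of 9 against 8.07%, in both cases Fcer1g. No marker was lower at that level. On both arrays of a treatment, 5 of 9 markers lay above 0 after CAT-SKL against 32.4% of all genes, and 8 of 9 after ADDL against 32.1%. After CAT-SKL+ADDL it was 6 of 9 against 36.2%, and after ADDL+CAT-SKL 3 of 9 against 30.1%. The plot of all probes by array shows these values.

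**Figure D1:**
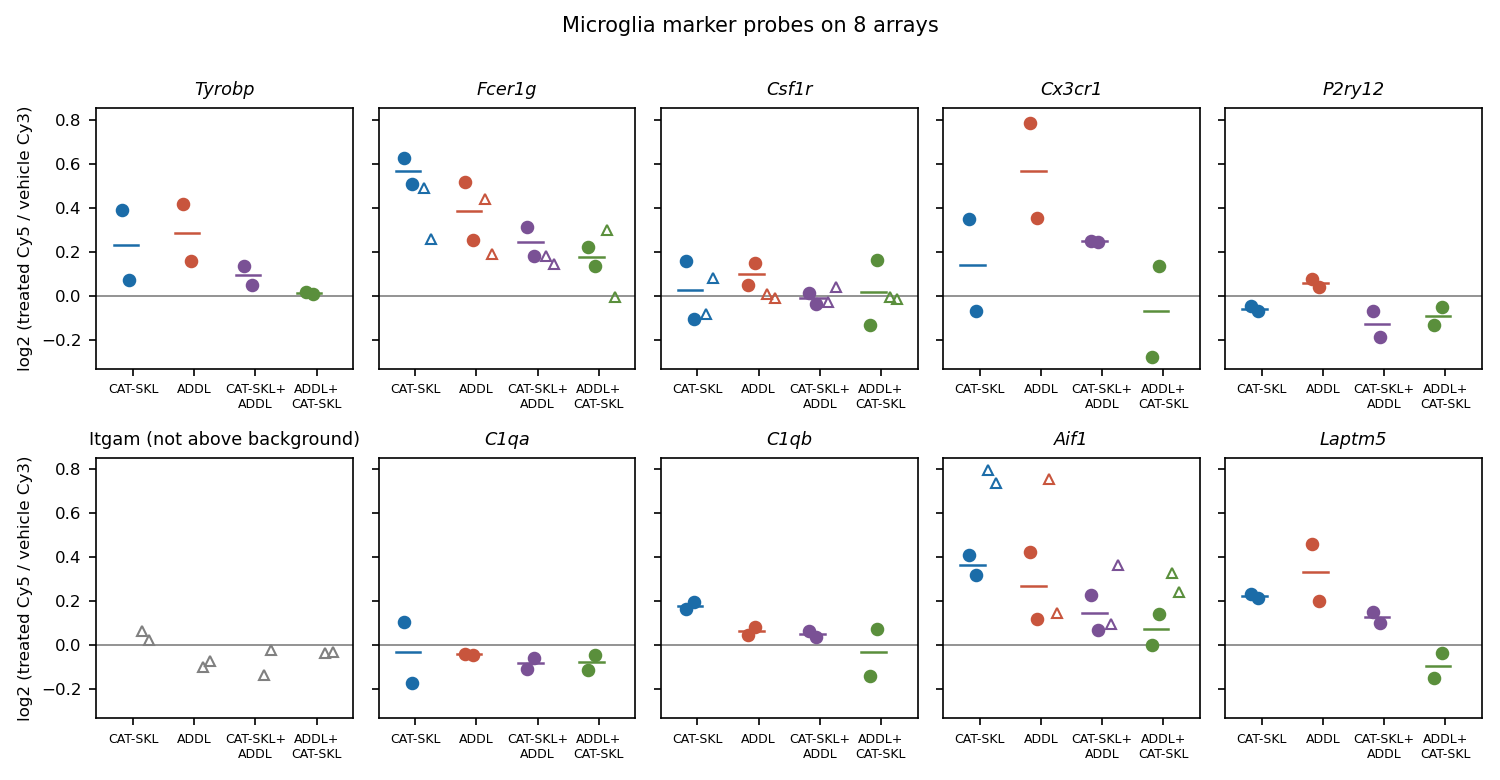
Log2 ratio of treated (Cy5) over vehicle (Cy3) signal for each probe of the 10 markers, by treatment. Filled circles are the 2 arrays of the probe that represents a gene, short lines their mean, open triangles other probes, and grey triangles the Itgam probe, which was not above background. The probe that represents Fcer1g lies above 0 on all 8 arrays. Cx3cr1 is highest on ADDL array 1 (0.78), with ADDL array 2 and CAT-SKL array 1 both at 0.35.

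Fcer1g, the gamma chain that carries the signal of Fc receptors, was above 0 on every array, as was Tyrobp. Its log2 ratios were 0.62 and 0.51 after CAT-SKL, 0.52 and 0.25 after ADDL, 0.31 and 0.18 after CAT-SKL+ADDL, and 0.22 and 0.13 after ADDL+CAT-SKL. The CAT-SKL arrays overlapped those of ADDL, and both sequential treatments lay below CAT-SKL alone. The rise after CAT-SKL was 0.57 ± 0.07 (standard error of limma), a fold of 1.48, with an adjusted p of 0.0261. After ADDL the change was 0.39 ± 0.07 with an adjusted p of 0.0723, after CAT-SKL+ADDL 0.25 ± 0.10 (adjusted p 0.422), and after ADDL+CAT-SKL 0.18 ± 0.07 (adjusted p 0.258). Over 18 alternatives the CAT-SKL change ran from 0.47 to 1.38, with an adjusted p from 0.00116 to 0.361, and passed in 14. The call rested on array 1: without it the change was 0.51 and the adjusted p 0.361. With no offset in the background correction the CAT-SKL change was 1.19 with an adjusted p of 0.187, and with the log ratios of the authors' deposited files it was 1.38 with an adjusted p of 0.179. The size thus grew and the call was lost under both, and under both settings 0 genes passed in all. The other Fcer1g probe gave 0.49 and 0.26 after CAT-SKL, 0.44 and 0.19 after ADDL, 0.18 and 0.14 after CAT-SKL+ADDL, and 0.30 and -0.01 after ADDL+CAT-SKL. It ran below the brighter probe on 7 of 8 arrays and above it on ADDL+CAT-SKL array 1.

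Tyrobp, the adaptor DAP12 that serves Trem2 and related receptors, had ratios of 0.39 and 0.07 after CAT-SKL, 0.41 and 0.16 after ADDL, 0.13 and 0.05 after CAT-SKL+ADDL, and 0.02 and 0.01 after ADDL+CAT-SKL. All 8 were above 0, and in each treatment array 1 read higher than array 2. The change was 0.23 ± 0.09 after CAT-SKL (adjusted p 0.188) and 0.29 ± 0.09 after ADDL (adjusted p 0.143), and neither passed. The 2 spots of the probe on an array differed with an SD of 0.05, against an SD of 0.16 over the 8 arrays.

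The receptors did not share 1 pattern. Cx3cr1, the receptor for neuronal fractalkine, had ratios of 0.35 and -0.07 after CAT-SKL, 0.78 and 0.35 after ADDL, 0.25 and 0.25 after CAT-SKL+ADDL, and -0.28 and 0.13 after ADDL+CAT-SKL. The ADDL arrays lay above those of every other treatment, with array 2 of ADDL only just above array 1 of CAT-SKL. That order reversed with no offset (0.36051 against 0.36115) and with the deposited ratios (0.41 against 0.43). The change after ADDL was 0.57 ± 0.14, a fold of 1.48, with an adjusted p of 0.0958. It passed in 2 of 18 alternatives, with 8 separate samples (adjusted p 0.0423) and with arrays centred on the median (adjusted p 0.00594), and the adjusted p ranged up to 0.566. After the other treatments the changes were 0.14 ± 0.14 for CAT-SKL, 0.25 ± 0.19 for CAT-SKL+ADDL and -0.07 ± 0.14 for ADDL+CAT-SKL. The sign for CAT-SKL turned to -0.07 without array 1, and that for ADDL+CAT-SKL to 0.13 without array 1 and to 0.000861 with the deposited ratios. The SD between the 2 spots of this probe was 0.05, against 0.31 over the arrays.

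Csf1r, the receptor for the growth factors Csf1 and Il34, had ratios of 0.16 and -0.11 after CAT-SKL, 0.05 and 0.15 after ADDL, 0.01 and -0.04 after CAT-SKL+ADDL, and -0.13 and 0.16 after ADDL+CAT-SKL. The arrays of a treatment disagreed in sign in 3 of 4 treatments. The largest change was 0.10 ± 0.09, after ADDL, with a 95% interval of -0.10 to 0.30 and an adjusted p of 0.609. The second Csf1r probe, nearer to background, stayed between -0.09 and 0.08 on all arrays.

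P2ry12, a receptor for ADP that guides microglial processes, had ratios of -0.05 and -0.07 after CAT-SKL, 0.07 and 0.04 after ADDL, -0.07 and -0.19 after CAT-SKL+ADDL, and -0.13 and -0.05 after ADDL+CAT-SKL. Both ADDL arrays were above 0 and the 6 others below. No change passed, and the changes ran from -0.13 ± 0.07 (CAT-SKL+ADDL, adjusted p 0.588) to 0.06 ± 0.05 (ADDL, adjusted p 0.631).

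The complement genes C1qa and C1qb encode chains of C1q, the recognition molecule of the classical pathway, which microglia make in the brain and which tags synapses for removal. C1qb had ratios of 0.16 and 0.20 after CAT-SKL, 0.05 and 0.08 after ADDL, 0.07 and 0.04 after CAT-SKL+ADDL, and -0.14 and 0.08 after ADDL+CAT-SKL. Of the 8 arrays 7 were above 0, and both CAT-SKL arrays exceeded the 6 others. Its spread over arrays (SD 0.10) was close to that between its 2 spots on an array (SD 0.09). The change after CAT-SKL was 0.18 ± 0.06 with an adjusted p of 0.158. C1qa had ratios of 0.11 and -0.17 after CAT-SKL, -0.04 and -0.05 after ADDL, -0.11 and -0.06 after CAT-SKL+ADDL, and -0.11 and -0.04 after ADDL+CAT-SKL. It lay below 0 on 7 of 8 arrays, but its spread over arrays (SD 0.08) was no wider than that between its 2 spots on an array (SD 0.09). Its changes ran from -0.08 ± 0.10 to -0.03 ± 0.07, and none passed. With the authors' deposited log ratios the C1qa change after ADDL was -0.52 ± 0.34, which did not pass either (adjusted p 0.461). The ratios of C1qa and C1qb correlated at 0.21 over the 8 arrays.

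Aif1 encodes IBA1, an actin-binding protein widely used to stain microglia. Its ratios were 0.41 and 0.32 after CAT-SKL, 0.42 and 0.12 after ADDL, 0.23 and 0.07 after CAT-SKL+ADDL, and 0.000162 and 0.14 after ADDL+CAT-SKL. No array was below 0, but ADDL+CAT-SKL array 1 read -0.003 with no offset and -0.02 with the deposited ratios. The CAT-SKL arrays lay above all sequential ones. The change after CAT-SKL was 0.37 ± 0.08, a fold of 1.29, with an adjusted p of 0.0534. It passed in 4 of 18 alternatives: 8 separate samples (adjusted p 0.0248), arrays centred on the median (0.0116), probes above background in both channels on all arrays only (0.0426), and the mean over probes (0.0380). After ADDL the change was 0.27 ± 0.08 (adjusted p 0.131). The second Aif1 probe read higher after CAT-SKL, at 0.80 and 0.74. It gave 0.75 and 0.15 after ADDL, 0.10 and 0.36 after CAT-SKL+ADDL, and 0.33 and 0.24 after ADDL+CAT-SKL, so that the probes agreed that ratios were at or above 0 but not on the size.

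Laptm5, a lysosomal membrane protein of blood-derived and microglial cells, had ratios of 0.23 and 0.21 after CAT-SKL, 0.46 and 0.20 after ADDL, 0.15 and 0.10 after CAT-SKL+ADDL, and -0.15 and -0.04 after ADDL+CAT-SKL. The 6 arrays of the first 3 treatments were above 0 and both arrays of the last were below. The change was 0.33 ± 0.07 after ADDL (adjusted p 0.0776) and 0.22 ± 0.07 after CAT-SKL (adjusted p 0.125). After CAT-SKL+ADDL it was 0.13 ± 0.10 and after ADDL+CAT-SKL -0.09 ± 0.07, where the deposited log ratios gave 0.02.

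Separate log2 levels of the channels, with the mean intensities made comparable between arrays (Aquantile), showed whether treated values left the range of vehicle. For Fcer1g the 8 vehicle values lay between 6.28 and 6.41 on the log2 scale and the treated ones between 6.42 and 6.96, so that every treated value was above every vehicle value. For Cx3cr1 the vehicle values ran from 10.5 to 10.989, and both ADDL values, 11.4 and 11.2, were above them. Both CAT-SKL+ADDL values, 11.163 and 10.996, were above them too, the second only just. Aif1 vehicle values ran from 7.10 to 7.32, the CAT-SKL values were 7.51 and 7.58, and the CAT-SKL+ADDL values were 7.41 and 7.36. Both treated values exceeded all vehicle values for 3 of 9 markers after CAT-SKL against 12.1% of all genes, and for 3 of 9 after ADDL against 12.2%. The counts were 4 of 9 after CAT-SKL+ADDL against 15.8%, and 1 of 9 after ADDL+CAT-SKL against 10.4%. Treated and vehicle values here differ in dye as well as treatment.

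**Figure D2:**
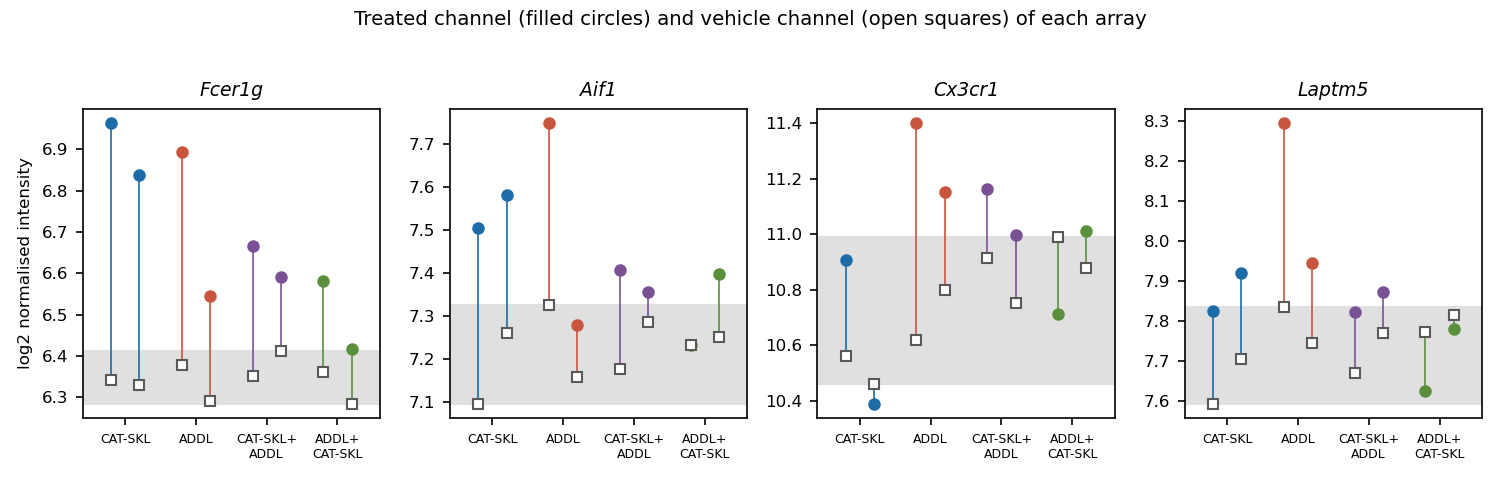
Log2 normalised intensity of the treated channel (filled circles) and the vehicle channel (open squares) of each array for 4 markers, with a line joining the channels of an array and grey shading over the range of all 8 vehicle values. All Fcer1g circles lie above the shading, whereas those of Laptm5 after ADDL+CAT-SKL lie within it (vertical axes differ and do not start at 0).

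How the background is treated set the size of several changes. With no offset, the median change of the 9 markers was 0.29 after CAT-SKL and 0.39 after ADDL, and with the deposited log ratios 0.20 and 0.37. The Fcer1g change after ADDL was 0.88 ± 0.12 with no offset and 1.10 ± 0.12 with the deposited ratios, against 0.39 in the main setting, and did not pass in any of the 3. Tyrobp after ADDL gave 0.48 ± 0.15 with no offset and 0.48 ± 0.19 with the deposited ratios. The Cx3cr1 change after ADDL, from a probe far above background, moved little, at 0.58 ± 0.17 and 0.64 ± 0.19.

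**Figure D3:**
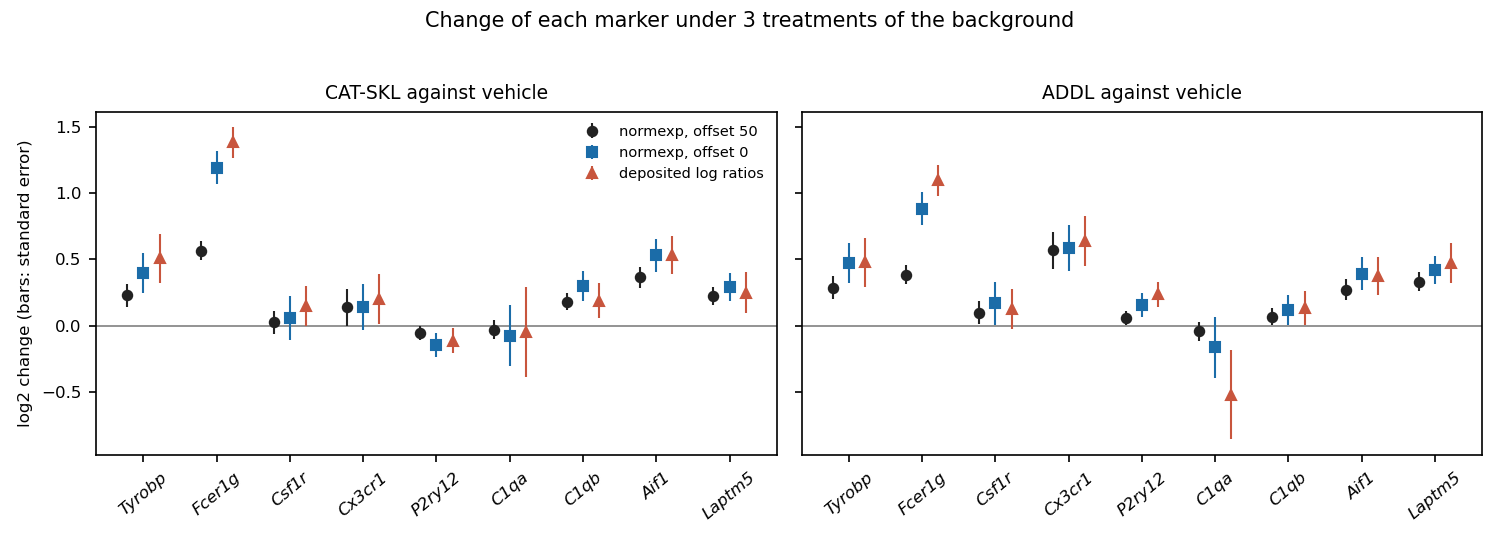
Log2 change of each measured marker after CAT-SKL and after ADDL, each against vehicle, under normexp correction with offset 50 (circles) or offset 0 (squares) and with the authors' deposited log ratios (triangles). Bars are standard errors of limma. Fcer1g moved from 0.57 to 1.19 and 1.38 after CAT-SKL, whereas Cx3cr1 after ADDL stayed between 0.57 and 0.64.

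Both sequential treatments were set against ADDL alone. These groups also differ in slide row and total time with agents, which cannot be told apart from the added CAT-SKL. After ADDL+CAT-SKL, all 9 measured markers were below ADDL alone, by a median of -0.20, where the median of all genes was -0.01. Of 18 alternatives, several could not change these differences, such as 8 separate samples, the replicate block, or leaving out CAT-SKL or CAT-SKL+ADDL arrays. All 9 stayed below in 17 of the 18, and 7 of 9 without ADDL+CAT-SKL array 1. The median was -0.13 without that array, -0.13 without ADDL array 1 and -0.34 without ADDL array 2. Some lists of other cell types were lower in the same comparison, and others lay near 0. The astrocyte list was below ADDL alone for 9 of 9 genes (median -0.53, 5 at an unadjusted p of limma below 0.05), the oligodendrocyte lineage for 8 of 9 (-0.28, 3) and proliferation for 6 of 6 (-0.21, 1), with 0 calls after adjustment in each. Medians were -0.04 for the neuron list, -0.01 for endothelial, 0.01 for lymphocyte and neutrophil, 0.03 for border macrophage and 0.07 for fibroblast and mural. The part of these cells in the marker differences was not tested. None passed the test (0 of 9 by limma, 0% of all genes), and 2 of 9, Laptm5 and Cx3cr1, had an unadjusted p below 0.05 and were lower, against 4.67% of all genes. Laptm5 differed by -0.42 ± 0.10 (95% interval -0.66 to -0.19, unadjusted p of limma 0.00288, adjusted p 0.573). Cx3cr1 differed by -0.64 ± 0.19 (95% interval -1.09 to -0.19, unadjusted p of limma 0.0110, adjusted p 0.573). Tyrobp differed by -0.27 ± 0.12 and Fcer1g by -0.21 ± 0.10, with intervals that included 0. The arrays of the groups did not overlap and were lower for 5 of 9 markers (Laptm5, Fcer1g, P2ry12, Cx3cr1 and Tyrobp), against 20.6% of all genes.

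With the agents in the other order, CAT-SKL before ADDL, all 9 markers were again below ADDL alone, by a median of -0.14, where the median of all genes lay within 0.01 of 0. That median was -0.07 without ADDL array 1 and -0.27 without ADDL array 2. It was -0.21 and -0.08 without CAT-SKL+ADDL array 1 and 2. A marker turned above ADDL in each of 3 alternatives: C1qa with the deposited ratios, Aif1 without ADDL array 1 and C1qb without ADDL array 2. The test called 0 of 9 by limma (0% of all genes), and 0 of 9 had an unadjusted p below 0.05, against 3.90%. The widest difference was that of Cx3cr1, at -0.32 ± 0.24 with a 95% interval of -0.87 to 0.23. Arrays did not overlap and were lower for 6 of 9 markers, against 24.9% of all genes. Both differences were taken from the same ADDL arrays and hold the same contrast of slide row and total time, so that they are not independent of each other.

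**Figure D4:**
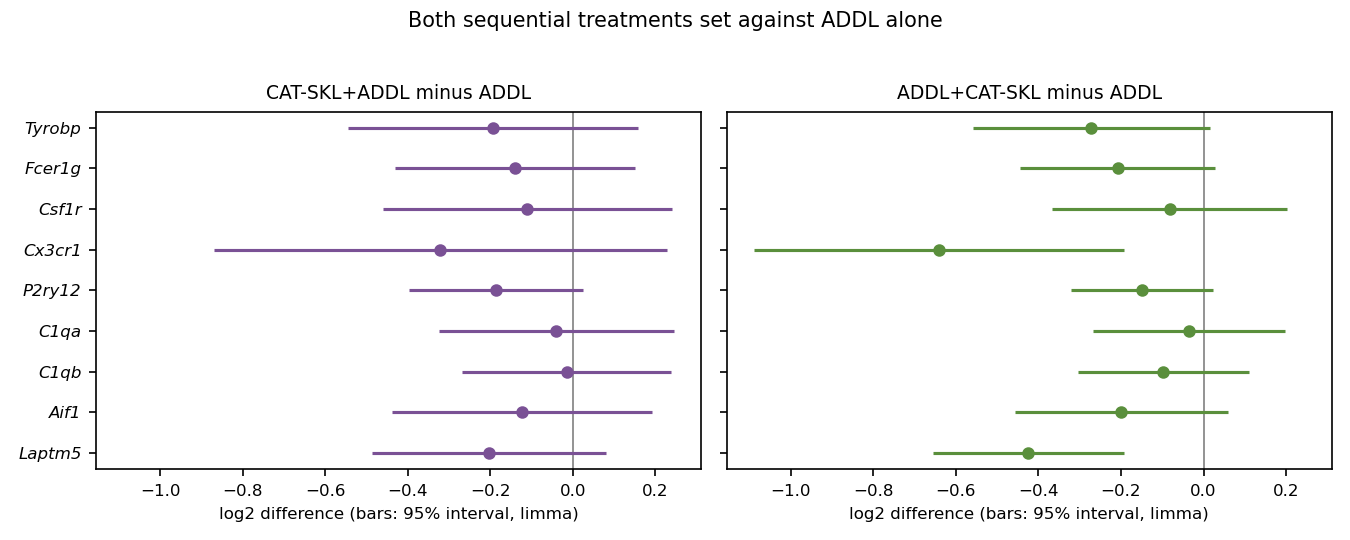
Log2 difference of each measured marker between a sequential treatment and ADDL alone, with 95% intervals of limma. All points lie below 0, and the intervals of Laptm5 and Cx3cr1 for ADDL+CAT-SKL do not reach 0 (before adjustment over all genes). Slide row and total time with agents also differ between the groups.

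The orders of the agents, set against each other, gave 0 of 9 calls by limma (0% of all genes) and 0 of 9 at an unadjusted p below 0.05 (5.64%). The median difference of ADDL+CAT-SKL minus CAT-SKL+ADDL was -0.08, and arrays were lower without overlap for Laptm5, Cx3cr1 and Tyrobp, 3 of 9 against 24.5%. Laptm5 differed by -0.22 ± 0.12, with a 95% interval of -0.50 to 0.06. The single agents were also compared. ADDL minus CAT-SKL gave 0 of 9 calls (0% of all genes), 0 of 9 at an unadjusted p below 0.05 (8.70%), and a median of 0.06. That median turned to -0.03 with the deposited ratios, -0.10 without CAT-SKL array 2 and -0.02 without ADDL array 1. Arrays were higher after ADDL without overlap for P2ry12 and Cx3cr1 (2 of 9, against 22.0%) and lower for C1qb (1 of 9, against 18.3%). With the deposited ratios the arrays of Cx3cr1 and of C1qb overlapped, and with no offset those of Cx3cr1 did. Cx3cr1 had the widest difference, 0.43 ± 0.19 with a 95% interval of -0.02 to 0.88, and Fcer1g differed by -0.18 ± 0.10 with an interval of -0.42 to 0.06.

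The markers varied together over the arrays to different degrees. The pair with the highest correlation was Fcer1g and Aif1 (r = 0.91 over 8 arrays), followed by Laptm5 and Cx3cr1 (0.84) and by Laptm5 and Aif1 (0.82). Fcer1g and Csf1r had the lowest (0.06). With the mean of the other markers, Tyrobp correlated at 0.90, Laptm5 at 0.87 and Aif1 at 0.85, whereas Csf1r correlated at 0.48, C1qa at 0.53 and C1qb at 0.53. The mean of the 9 markers was 0.26 and 0.10 on the CAT-SKL arrays, 0.30 and 0.15 on the ADDL arrays, 0.11 and 0.04 on the CAT-SKL+ADDL arrays, and -0.08 and 0.06 on the ADDL+CAT-SKL arrays. It was higher on array 1 than on array 2 in 3 of 4 treatments. The points of these correlations share a slide, a dye orientation and pairs of one treatment, and they are given as a description.

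Outside the marker set, 3168 genes with a symbol were well above background in both channels on all arrays and spread at least as much as the marker mean. The 6 with the highest correlation with that mean over the 8 arrays were Ovol1 (r = 0.95), Fcrl2 (0.95), Ubtf (0.94), RT1-A1 (0.92), Fgf18 (0.92) and Lmo7 (0.90). As the top of 3168 genes over 8 points, such correlations can be found without any link to the markers. RT1-A1, a class I heavy chain of the rat major histocompatibility complex, changed by 0.35 ± 0.10 after CAT-SKL (adjusted p 0.0882) and 0.45 ± 0.10 after ADDL (adjusted p 0.0770). Fcrl2, which encodes an Fc receptor-like protein, changed by 0.39 ± 0.11 and 0.41 ± 0.11, and Lmo7, a LIM-domain protein of cell junctions, by 0.35 ± 0.09 and 0.36 ± 0.09. Ovol1, a zinc-finger transcription factor, changed by 0.19 ± 0.08 and 0.22 ± 0.08, and the growth factor gene Fgf18 by 0.17 ± 0.09 and 0.31 ± 0.09, and none of these passed. Ubtf, a factor of ribosomal RNA transcription, was at or below 0 on 7 of 8 arrays and fell after ADDL+CAT-SKL (-0.48 ± 0.07, adjusted p 0.0446).

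The calls given for other genes rest on few arrays. After CAT-SKL, 588 genes passed in all and 2 without CAT-SKL array 1. After ADDL+CAT-SKL, 102 genes passed in all, 0 without array 1 of that treatment and 1 without array 2, and 0 also without any single CAT-SKL or ADDL array. Further microglial and myeloid genes were measured from a list of 32. Of these, 24 could be tested, and 7 were never above background, among them the microglial receptors P2ry13 and Gpr34 and the receptor Tlr4. After ADDL, 21 of the 24 lay above 0 with a median of 0.07, and after CAT-SKL 17 of 24 with a median of 0.05. After the sequential treatments the medians were 0.03 and 0.02. The list median correlated with the marker mean at 0.92 over the 8 arrays, at a smaller scale of 0.01 to 0.10. The test called 1 of the 24, after CAT-SKL, where 0.837% of all genes passed as higher. Olfml3, a secreted protein of microglia and other cells, rose by 0.34 ± 0.07 (adjusted p 0.0499). It stood at 0.41 ± 0.07 after ADDL (adjusted p 0.0714) and 0.60 ± 0.10 after CAT-SKL+ADDL (adjusted p 0.201). Trem2, the receptor that signals through Tyrobp, was measured at 0.46 and -0.20 on the ADDL arrays. Spi1, which encodes PU.1, was at 0.10 and -0.03, and Tmem119, a surface marker of microglia, at 0.08 and 0.06 on the same arrays. These 3 genes did not pass in any treatment and were named after their values were seen.

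The list of ligands and signalling partners of the markers had 12 of 15 genes tested. Cd200, a neuronal surface protein whose receptor sits on microglia, fell after CAT-SKL (-0.30 ± 0.06, adjusted p 0.0441), with ratios of -0.34 and -0.26. It was the only 1 of the 12 to pass, where 2.62% of all genes passed after CAT-SKL. The ligands of Csf1r and Cx3cr1 did not pass and were named after their values were seen. Il34 changed by 0.33 ± 0.07 after CAT-SKL (adjusted p 0.0561) and 0.22 ± 0.07 after ADDL (adjusted p 0.159), and Csf1 by 0.27 ± 0.09 and 0.17 ± 0.09. Cx3cl1, which encodes fractalkine, changed by -0.06 ± 0.07 and 0.04 ± 0.07. Of 11 other complement genes tested, 1, C4a, passed as lower after CAT-SKL (-0.37 ± 0.06, adjusted p 0.0381), against 2.62% of all genes. In the other treatments 0 passed, against 0 to 0.454% of all genes. C1qc, which encodes the third chain of C1q, lay between -0.06 and 0.05 in the 4 treatments.

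Genes that activated microglia express, some of them shared with other cells, were spread widely. Their list median ran from 0.01 to 0.13 over the arrays and correlated with the marker mean at -0.41. Single changes ran from -0.18 to 1.36 after ADDL. For ADDL+CAT-SKL minus ADDL they ran from -0.83 to 0.73, with 11 of 16 above 0 and 5 below. Of 16 tested, Ccl3, a chemokine of activated microglia, rose after CAT-SKL (0.49 ± 0.10, adjusted p 0.0467) and after ADDL+CAT-SKL (0.76 ± 0.10, adjusted p 0.0446). Its ratios were 0.66 and 0.32 after CAT-SKL, 0.18 and -0.13 after ADDL, 0.32 and 0.38 after CAT-SKL+ADDL, and 0.69 and 0.83 after ADDL+CAT-SKL. Ccl3 was highest in the treatment in which the marker median was lowest, but this order was not shared by the whole list. The largest change of any gene on it was 1.31 after CAT-SKL, 1.36 after ADDL and 1.43 after CAT-SKL+ADDL. After ADDL+CAT-SKL it was 0.76, that of Ccl3. Gpnmb, a transmembrane glycoprotein of activated microglia and other cells, rose after ADDL+CAT-SKL (0.44 ± 0.06, adjusted p 0.0446) and stood at 0.38 ± 0.06 after ADDL (adjusted p 0.0714). Ctsd, which encodes the lysosomal protease cathepsin D of many cell types, fell after CAT-SKL (-0.33 ± 0.06, adjusted p 0.0430). After CAT-SKL 1 of 16 thus passed as higher and 1 as lower, where 2.62% of all genes passed. After ADDL+CAT-SKL 2 of 16 passed, where 0.454% of all genes did.

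Markers of other cells were measured on the same arrays. For the labelled cell type, 10 of 10 neuronal markers were well above background in both channels on all arrays, with list medians between -0.12 and 0.04. Of the astrocyte markers, 9 of 9 were above background on all arrays. Their medians were 0.82 and 0.20 after CAT-SKL, 0.46 and 0.81 after ADDL, 0.58 and 0.52 after CAT-SKL+ADDL, and 0.29 and -0.02 after ADDL+CAT-SKL. By treatment, the median change was 0.44, 0.55, 0.55 and 0.12, and 0 of 9 passed in any. At an unadjusted p of limma below 0.05, 6, 9, 6 and 0 of 9 were higher, against 5, 5, 1 and 1 of 9 microglia markers. The median was lowest after ADDL+CAT-SKL, as was that of the microglia markers, but unlike theirs it was higher on ADDL array 2 than on array 1 and as high after CAT-SKL+ADDL as after ADDL. Over the 8 arrays the astrocyte median correlated with the marker mean at 0.49. Summed over the 9 astrocyte markers, the background-subtracted Cy5 signal was 13112 to 24523 scanner units after CAT-SKL, 13381 to 19349 after ADDL, 22853 to 23959 after CAT-SKL+ADDL and 8676 to 16176 after ADDL+CAT-SKL, against 9560 to 10996 in the vehicle channel. For the 9 measured microglia markers the same sums were 1990 to 2733, 2425 to 3016, 3099 to 3395 and 2074 to 2666, against 1832 to 2427 in the vehicle channel. These sums are not normalised between arrays, and the Cx3cr1 probe carried most of the latter, 2094 of 2733 on CAT-SKL array 1. The summed Cy5 signal of the neuronal markers also differed, from 82174 to 86084 after ADDL and from 115230 to 116295 after CAT-SKL+ADDL. Among 9 oligodendrocyte-lineage genes, 3 rose after CAT-SKL, where 0.837% of all genes passed as higher: Pdgfra, a receptor of oligodendrocyte precursors (1.19 ± 0.21), and the lineage factors Sox10 (0.57 ± 0.11) and Olig2 (0.50 ± 0.09). Among 6 proliferation genes 1, Birc5, which encodes survivin, rose after CAT-SKL (0.37 ± 0.07, adjusted p 0.0420), against the same 0.837% of all genes. The median of that list lay between 0.11 and 0.62 on the arrays. Border macrophage markers were close to background, with 0 to 3 of 7 genes above it in Cy5 and 0 to 2 in Cy3. Of lymphocyte and neutrophil markers, 2 to 5 of 8 were above background in Cy5 and 1 to 4 in Cy3. The part of these other cells in the microglia values was not tested.

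**Figure D5:**
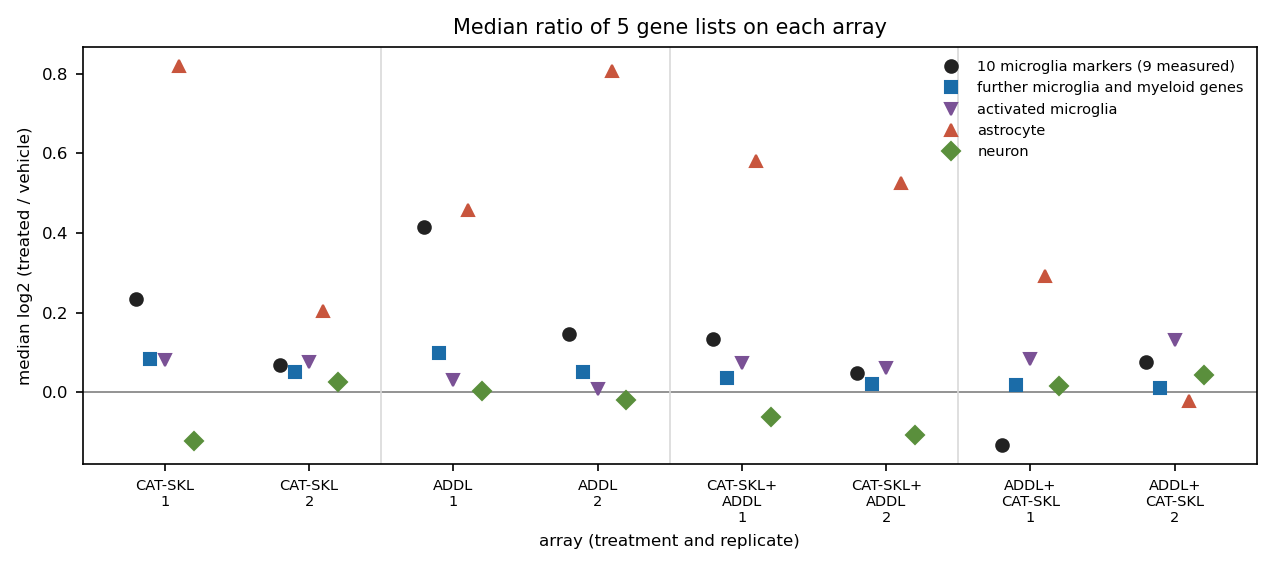
Median log2 ratio of treated over vehicle on each array for the microglia markers and 4 other gene lists. The microglia median (circles) runs from 0.41 on ADDL array 1 to -0.13 on ADDL+CAT-SKL array 1, and the astrocyte median (triangles pointing up) reaches 0.82 on CAT-SKL array 1.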

How the data were processed

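Labelled RNA of 8 samples was hybridised to 8 two-colour Agilent rat arrays, with treated cells in Cy5 and vehicle in Cy3. The authors extracted spot signals with Agilent Feature Extraction 11.5, per the submitters' processing notes. The deposited scanner files hold signal and background intensity per spot, and a dye-normalised log10 ratio of Cy5 over Cy3, per the file headers. Values in the series table are labelled as being on this log10 scale too, and differed from those of the scanner files by at most 0.005.

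Median signals were background-corrected (normexp, offset 50) and loess-normalised within arrays in limma 3.58.1 (R 4.3.3), with control spots at weight 0 and 902 to 1262 spots with outlier flags per array left out. Values of spots with the same probe were averaged. Probes entered the test when 2 or more of the 8 arrays had a signal well above background in Cy5 or Cy3, and the brightest tested probe represented a gene, which left 25363 of 30367 probes and 22459 genes or accessions. Between 73.3% and 81.0% of probes were above background in Cy5 and 71.5% to 77.4% in Cy3, and 0 spots were saturated. Each ratio was tested against 0 with lmFit and eBayes over all 4 treatments (7 samples). The vehicle signal of an array enters its ratio, so its variation between arrays is part of the tested spread. Whether this covers a spread between vehicle cultures is not known, as the labels do not say whether vehicle RNA was pooled. The p-values were adjusted by Benjamini-Hochberg over all 22459 features at a threshold of 0.05. The fit was also run on simulated data with known changes, all larger than those of the markers in the main setting. That run does not show how well changes of the markers' size are found. Median signals were used in place of means.

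Members and gene lists were chosen with earlier results of these data known. Besides the members, genes of the lists that passed in any of the 8 comparisons were named, otherwise up to 3 a list by smallest p, and the 6 genes most correlated with the marker mean. Not every gene that this rule allows is printed, and Trem2, Spi1, Tmem119, C1qc, Il34, Csf1 and Cx3cl1 were named outside it, after their values were seen. Accessions were named through RefSeq tables (GRCr8). Alternatives were 8 separate samples, median centring, no background subtraction, the deposited ratios, other filters, the mean over probes, outlier spots kept, a replicate block, each array left out, and offset 0.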

Additional observations from a re-analysis of the deposited data

How the results depend on the processing

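The count of microglia markers called after CAT-SKL was 1 and depended on the processing. It was 2 (Fcer1g and Aif1) with 8 separate samples, with arrays centred on the median, with only probes above background in both channels on all arrays, and with the mean over probes, where 1820, 1819, 846 and 500 genes were called in all. It was 0 with the deposited log ratios and with offset 0, an alternative chosen after seeing the data, and both called 0 genes in all. Leaving out single arrays gave 0 to 1, with 0 without CAT-SKL array 1, where 2 genes were called in all. After ADDL the count was 0 and became 3 (Laptm5, Fcer1g and Cx3cr1) with 8 separate samples and 2 (Fcer1g and Cx3cr1) with median centring, where 975 and 430 genes were called. Leaving out single arrays gave 0 to 0. In the other 6 comparisons the count was 0 in every alternative that was run. With the replicate block, the CAT-SKL count was 0, the adjusted p of Fcer1g was 0.0575, and 6 genes were called in all. Differences between array 2 and array 1 correlated between treatments at -0.20 to 0.08 over all genes. Those with CAT-SKL+ADDL could only lie near 0, as its arrays differed by no more than spot noise. Among the other treatments the values were -0.09, 0.08 and -0.20. Whether the replicate numbers pair the samples is not settled by these values. Of 1296 values of single markers, 4 lost and 9 gained a call, 140 moved beyond the spread, 36 changed sign and 0 called values reversed. Many of these changes could not move in a given alternative, as when the array left out belonged to a treatment outside the comparison. The counts over 1296 values, and over 18 alternatives for a single marker, therefore overstate the number of separate checks. Why values moved was not tested, except that offset 0 removes a constant that compresses ratios of dim probes. Signal close to background limits C1qa, P2ry12 and Fcer1g, whose median vehicle signals were 1.47, 1.92 and 1.82 times background.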
